A study of Mus musculus with 24 samples.

Results

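Rab GTPases are the small GTP-binding proteins that give membrane compartments their identity and direct vesicles between them. The genes described here were the 54 of 14922 in the deposited table whose symbol is Rab followed by a number, with or without a letter. Rab26 was the starting point because it was among the genes that differed most between the strains of the study, so the set was chosen by the strain difference of Rab26, which is given for both genotypes only as a description. RNA was sequenced from female mouse neural stem cells (NSCs), the dividing precursor cells of the embryonic cortex, grown from E14.5 embryos and harvested at passage 10 or earlier. FVB_WT cells were wild type on the FVB/NJ background, and FVB_MD43 cells were homozygous for MommeD43, a chemically induced variant of Smchd1, which encodes a chromatin protein needed for silencing on the inactive X chromosome and at some gene clusters. B6GFP_WT cells were C57BL/6J cells with the MommeD43 position unchanged. The study calls them homozygous for a fusion of Smchd1 with GFP, and their sample titles read Smchd1GFP WT. B6GFP_MD43 cells carried that fusion too, and were homozygous for the MommeD43 change, which genome editing had put into it. All B6GFP cells therefore shared the fusion, and strain and fusion cannot be told apart in any comparison of B6GFP with FVB. Between the MommeD43 groups, the origin of the variant, chemical or edited, cannot be told apart from strain either.

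After 2 columns that equalled the mean of their group mates were left out, 22 libraries of 17 lines remained, with 6 libraries of 5 lines in FVB_WT, 5 of 4 in FVB_MD43, 6 of 4 in B6GFP_WT and 5 of 4 in B6GFP_MD43. Lines served as biological replicates, and repeat libraries of a line were technical. The fit took the 22 libraries with line as a block of correlation 0.0827, so repeat libraries weighed almost as separate replicates. The study calls the lines independent, but by their labels 3 B6GFP_WT lines share a leading number with 2 B6GFP_MD43 lines, and 1 FVB_WT line shares its number with 1 FVB_MD43 line. What a shared number stands for is not given. Batch 1 held both strains, batch 2 FVB only and batch 3 B6GFP only. All 8 NSC markers checked were present, and their summed level was 12.40 to 12.95 log2 CPM in every library. Of the 8, 3 were called higher and 3 lower in B6GFP_MD43 than in FVB_MD43, so the even sum hides shifts of single markers. Hes5 had 3.62 to 5.38 log2 CPM in FVB_MD43 and 0.96 to 2.42 in B6GFP_MD43. Nes went the other way, with 9.68 to 9.97 in FVB_MD43 and 10.16 to 10.80 in B6GFP_MD43. Neuron markers summed to 9.69 to 9.91 in FVB_MD43 and 9.89 to 10.41 in B6GFP_MD43, with B6GFP_MD43 replicate 2 highest. Map2 made up most of that sum, at 9.63 to 9.95 log2 CPM in the MommeD43 libraries, and of the 8 neuron markers 2 were called higher and 1 lower in B6GFP. Syt1, also among these 8, had 3.32 to 4.05 log2 CPM in FVB_MD43 and 4.78 to 7.88 in B6GFP_MD43, so its gap was not confined to replicate 2. Dcx, a marker of young neurons, had 1.58 to 2.08 log2 CPM in FVB_MD43. In B6GFP_MD43 Dcx had 5.20 in replicate 2, 1.47 in replicate 4 and -0.80 to -0.01 in the other libraries. Replicate 2 also had the highest endothelial sum, 3.56, against -0.01 to 0.69 in the other B6GFP_MD43 libraries. Astrocyte markers summed to 7.70 to 8.17 in FVB_MD43 and 6.83 to 7.27 in B6GFP_MD43, and all 5 were called lower in B6GFP. The part of these cell-type differences in the results on Rab genes was not tested. In bulk RNA, a change in the share of a cell type and a change in RNA per cell cannot be told apart.

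A Rab protein is active when bound to GTP and inactive when bound to GDP. Exchange factors (GEFs) load it with GTP, GTPase-activating proteins (GAPs) switch it off, and effectors such as tethers and motors bind the active form. A lipid group on cysteines at the C terminus anchors it in the membrane, Rab escort proteins present it for that prenylation, and GDP dissociation inhibitors draw it back to the cytosol. Most members act in every cell, in transport between endoplasmic reticulum (ER), Golgi, endosomes and lysosomes. The Rab3 group, Rab26 and Rab27 serve regulated secretion and are best known from neurons and gland cells.

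The cysteine anchor can be read from the ends of the coding sequences. Of the 54 members, 18 ended with 2 cysteine codons separated by 1 other codon, 15 with an adjacent pair, 12 had an adjacent pair just before the last residues and 9 had 1 cysteine in the last 4 codons. The last 30 coding bases before the stop codon (GENCODE M21, GRCm38, gene strand) are shown for 6 members: Rab26, the 4 others that were called between strains under every setting tried, and Rab39, the member with the smallest p for MommeD43 in B6GFP. Capitals mark cysteine codons.
Rab26 (chr17:24529544-24529573, minus): gagggccgaggggtctccTGCTGTcgactc
Rab3b (chr4:108940781-108940810, plus): ccacctctgctgcagcagaacTGCtctTGT
Rab6b (chr9:103181214-103181243, plus): cccccggccagcgagggcggcTGCtccTGT
Rab7b (chr1:131711665-131711694, plus): tctccaggccagccaaagagcagaTGCTGC
Rab33a (chrX:48530072-48530101, plus): gaggctaacggtaaagcctccTGTcctTGT
Rab39 (chr9:53686313-53686342, minus): gcagtcaagcccagaaaagagTGCttcTGT
Rab26 kept its pair 2 codons from the end, Rab7b ended on an adjacent pair, and the other 4 ended on a pair with 1 codon between. Translated, Rab26 had 260 residues against a median of 215 over the family, and its closest member was Rab8a at 51% identity. Rab8a, which acts in polarised exocytosis, had a mean of 5.64 ± 0.04 log2 CPM in FVB_MD43 and 5.65 ± 0.08 in B6GFP_MD43 (SD, n = 4 lines each), and the 95% interval of its strain difference was -0.06 to 0.15.

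RefSeq (GRCm38.p6) start-site windows were matched for 45 of the 54 members, with no entry for Rab26 or Rab7b. The Rab3b window is printed because Rab3b had the largest strain difference of the matched members. It covers 240 bases on the plus strand, chr4:108878820-108879059, with CG in capitals.
Rab3b: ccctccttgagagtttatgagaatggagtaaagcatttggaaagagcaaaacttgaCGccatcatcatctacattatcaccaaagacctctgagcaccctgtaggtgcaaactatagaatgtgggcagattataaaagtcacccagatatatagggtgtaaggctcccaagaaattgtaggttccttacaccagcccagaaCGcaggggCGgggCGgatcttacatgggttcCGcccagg
Its 250-base window held 6 CG and an observed to expected CG ratio of 0.405, against a median of 0.756 over the 45 members and 0.728 over 11104 genes of the table. Searched on both strands, the letters TATAAA were in 3 member windows (6.67%), Rab3b among them, and in 6.38% of the table's windows. The E-box CACGTG was in 4 member windows (8.89%) and in 8.38% of the table's. A match is a description of these letters only.

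Rab transcripts summed to 4130 to 5365 CPM in the MommeD43 libraries of B6GFP and to 4409 to 5087 in those of FVB. Between 47 and 51 of the 54 members lay above 1 CPM in each library. The 5 highest members by mean level in reads were Rab31, Rab6a, Rab1a, Rab10 and Rab14, which act in Golgi, endosomal and secretory transport. Divided by exon length (GENCODE M21), the mean order over all libraries began with Rab31, Rab6a, Rab5c, Rab10 and Rab1a, at 8.17, 7.07, 6.46, 6.45 and 6.39 log2 CPM per kilobase. In FVB_MD43 Rab26 had place 44 of 54 at -0.62 log2 CPM per kilobase, and in B6GFP_MD43 place 9 at 6.07. Rab3b moved from place 23 to place 3, and Rab7b from place 46 to place 53. Places come from group means, and neighbouring places were not tested.

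Rab26 was chosen for its strain difference, so that difference carries no test here. In FVB_WT the lowest, median and highest Rab26 levels were 0.08, 0.83 and 1.21 log2 CPM, and in B6GFP_WT they were 6.59, 7.43 and 7.67. The fitted difference was 6.54 for Rab26, 3.11 for Rab3b, -3.37 for Rab7b, 1.26 for Rab6b and -0.86 for Rab39 on the log2 scale (B6GFP minus FVB). Of the members, 20 of 54 were past the threshold against 41.1% of all genes, and nothing is read from that count.

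The MommeD43 libraries ask which Rab genes differ between the strains in mutant cells. The choice of Rab26 did not set them aside, and the other members entered by symbol. Rab26 and Rab3b were higher and Rab7b was lower in B6GFP_MD43 than in FVB_MD43, by far the widest gaps in the family. In all, 17 of 54 members (31.5%), Rab26 among them, were called at an adjusted p under 0.05, 5 higher and 12 lower, against 34.4% of all genes (14.7% higher and 19.6% lower). When each library was centred on its median, which moved the median strain difference of all genes from -0.03 to 0.04, the split was 9 higher and 7 lower, so the majority direction of the family turned with the scaling. The median difference over members was -0.06, and over all genes -0.03. A difference of more than 2-fold was fitted for 6 of 54 members (11.1%), Rab26 among them, and for 7.65% of all genes. By absolute change Rab26 was in place 5 of 14922 genes and Rab3b in place 78. The place of Rab26 restates how it was chosen, since it was also 5 in wild type.

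**Figure D1:**
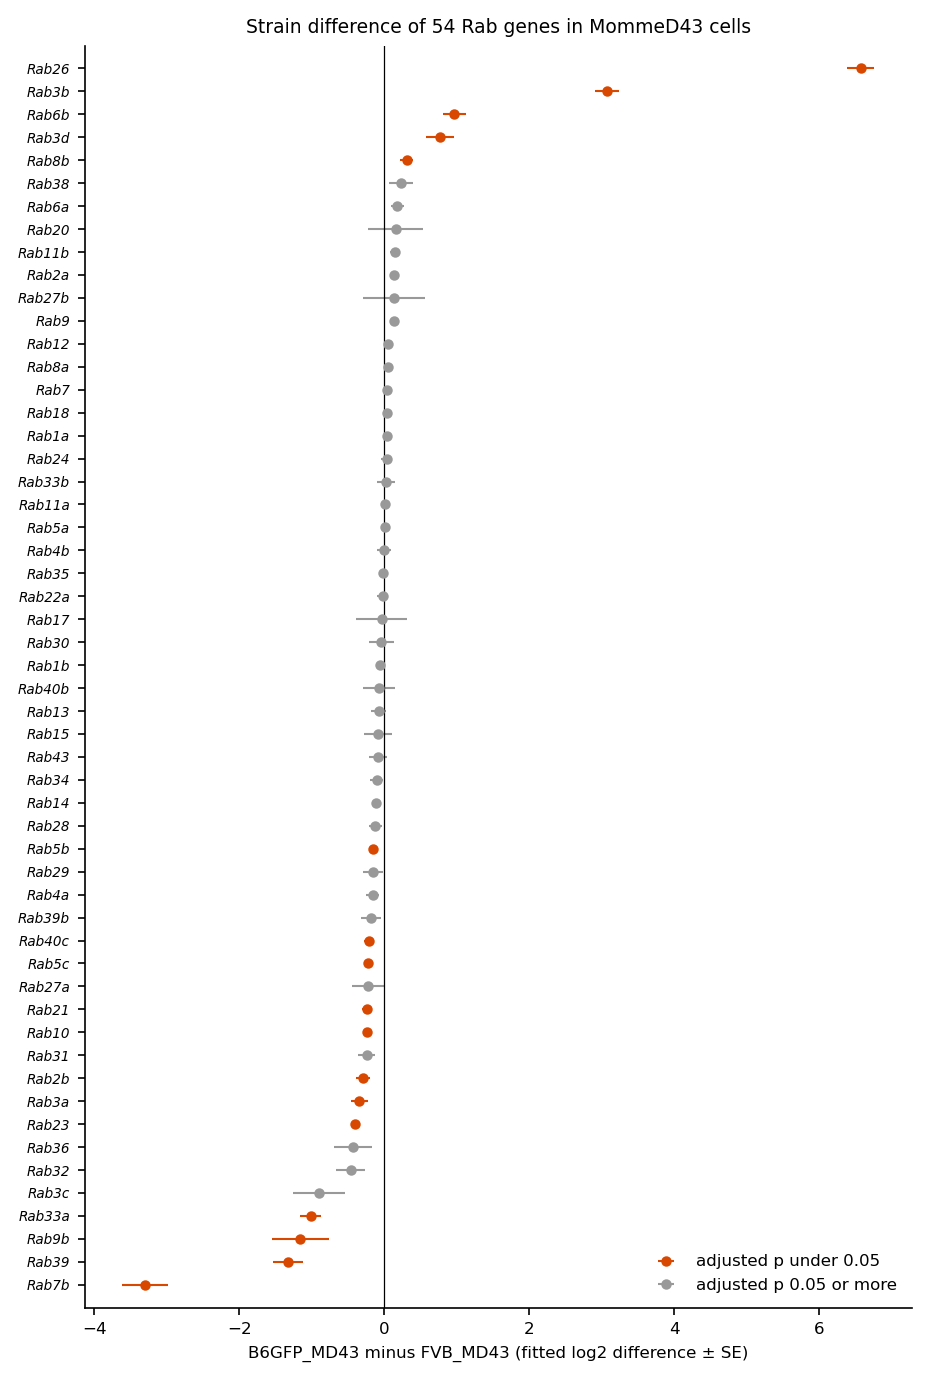
Fitted strain difference (horizontal axis, B6GFP_MD43 minus FVB_MD43, log2 scale) of the 54 Rab genes, with bars of ± 1 SE and called members in orange. Rab26 at 6.58 and Rab3b at 3.08 stand to the right and Rab7b at -3.30 to the left; 5 members were called higher and 12 lower, or 9 and 7 after centring of each library.

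Rab26 directs secretory granules and synaptic vesicles, and has been linked to their capture by autophagy. Its FVB_MD43 libraries had 0.71, 0.98, 0.86, 1.10 and 0.82 log2 CPM, and its B6GFP_MD43 libraries 7.58, 7.30, 8.03, 7.27 and 7.60. The groups did not come near each other, and the spread within each was under 1 unit. The fitted difference was 6.58 ± 0.19 (SE), 95.5-fold. Rab26 took 0.0349 to 0.0478% of the summed Rab CPM in FVB_MD43 and 3.13 to 5.64% in B6GFP_MD43.

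Rab26 also gave 6.59 when MommeD43 libraries alone were fitted, and 6.60 in those of batch 1 alone. The joint fit ties the strains through batch 1, the only batch that held both. With all members, 11 of 54 were called in the fit of MommeD43 libraries alone, where 22.8% of all genes were, and 7 of 54 in batch 1 alone, where 10.9% were. Without quality weights 6 of 54 were called, where 6.82% of all genes were. These 6 were Rab26, Rab3b, Rab6b, Rab7b, Rab33a and Rab39. Leaving out the line B6GFP_MD43 replicate 3 raised the count to 29 of 54, beside 54.8% of all genes.

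Rab26 (Entrez 328778) lies at chr17:24529054-24533747 on the minus strand in RefSeq. The GENCODE M21 model is longer and overlaps the antisense gene Rab26os over 497 bases, Traf7 over 698 bases and 2 further models. The annotation and the use of strand in counting are not given in the sources used here, so reads in those stretches cannot be told apart. Rab26os itself had 2.07, 2.24, 2.56, 1.70 and 2.43 log2 CPM in FVB_MD43 and 2.28, 2.94, 2.25, 2.90 and 2.41 in B6GFP_MD43. These overlapped, with a fitted difference of 0.30 ± 0.20 (SE, adjusted p = 0.257). Traf7, the next gene on that side, differed by 0.07 ± 0.06 (adjusted p = 0.335).

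On the other side of Rab26, Pkd1, the polycystin gene, had means of 7.14 ± 0.08 in FVB_MD43 and 8.10 ± 0.17 log2 CPM in B6GFP_MD43 (SD, n = 4 lines each). It was called higher in B6GFP by 0.79 ± 0.07 (SE). Caskin1, beyond Traf7, was called higher by 0.44 ± 0.10 with an adjusted p of 0.00159. Tsc2 (0.17 ± 0.08) and Nthl1 (-0.28 ± 0.14) were not called. The gap of Rab26 was thus over 5 log2 units wider than that of any of the 6 genes beside it.

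**Figure D2:**
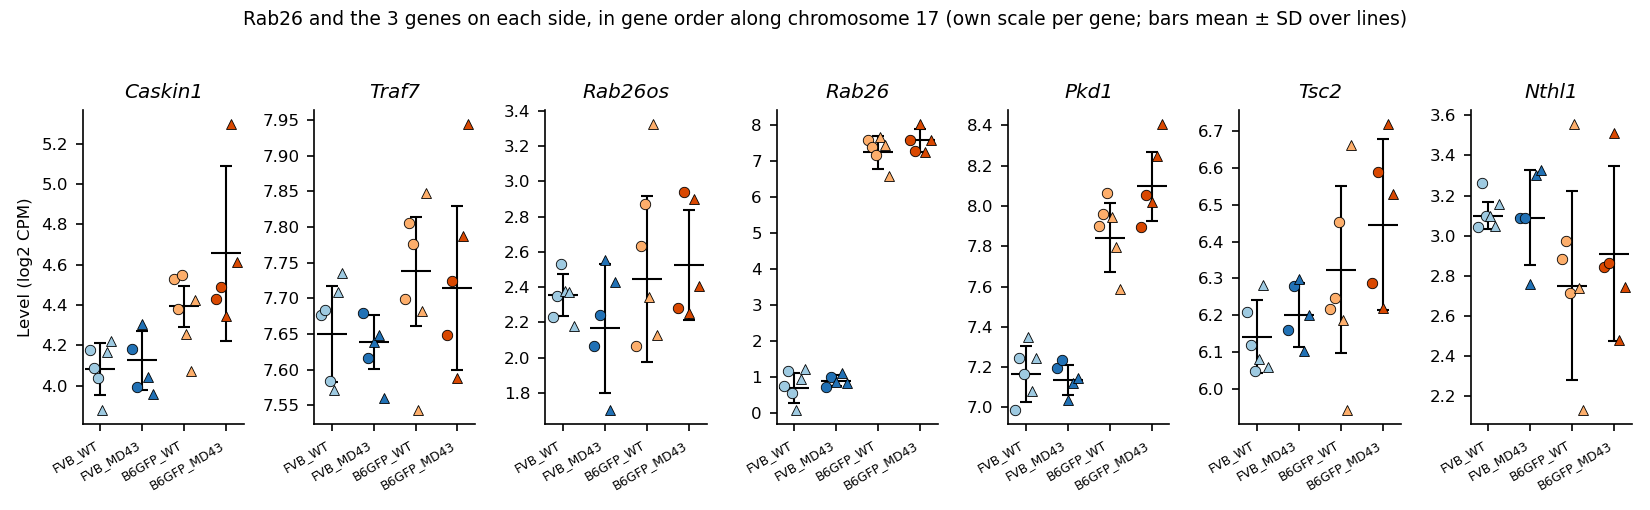
Level (log2 CPM, own vertical scale in each panel) of Rab26 and the 3 listed genes on each side of it in order along chromosome 17, by group, with circles for batch 1, triangles for batches 2 and 3 and bars for the mean ± SD over lines. Rab26 separates the strains at about 1 against 7 log2 CPM, Pkd1 separates them by less than 1 unit, and Rab26os and Traf7 overlap between strains.

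Among the regulated secretion and synaptic vesicle members, 3 of 7 were higher (Rab26, Rab3b, Rab3d), 1 was lower (Rab3a) and 3 were not called, beside 14.7% of all genes higher and 19.6% lower. Rab26 is in that count although it was chosen for its difference. Rab3b, a Rab3 form that acts in vesicle exocytosis, had 5.54, 5.32, 4.82, 5.37 and 5.57 log2 CPM in FVB_MD43 and 8.41, 8.40, 8.10, 7.64 and 8.98 in B6GFP_MD43. The lowest B6GFP library was above the highest FVB library by more than 2 units. The fitted difference was 3.08 ± 0.16 (SE), 8.43-fold, with adjusted p = 7.69e-12. It was 2.96 with MommeD43 libraries alone and 2.98 in their batch 1 alone (adjusted p = 0.00633). An exact two-sided permutation test over means of 4 lines against 4 gave p = 0.0286, the smallest that 70 splits allow. That test was run only for the members with the widest gaps. Their groups do not overlap, so its p could only be the smallest and adds no support. The closely related Rab3a, the main Rab3 of synaptic vesicles, went the other way at -0.34 ± 0.11 (adjusted p = 0.0225). Its B6GFP_MD43 libraries had 3.87, 3.95, 4.03, 4.96 and 4.04 log2 CPM, so replicate 2, the library with the highest neuron marker sum, lay above all FVB_MD43 libraries, which ran from 4.04 to 4.42. The Rab3a call was lost under 6 alternatives, with values from -0.45 to -0.06 and adjusted p from 0.0575 to 0.935, the last without quality weights. Leaving out FVB_MD43 replicate 1 or B6GFP_MD43 replicate 4 was enough to lose it. Rab3d, known from secretory granules, differed by 0.77 ± 0.20 (adjusted p = 0.00492), but by 0.77 with adjusted p = 0.0587 in MommeD43 libraries alone. Rab3b shared 78.5% of aligned residues with Rab3a and 76.7% with Rab3d, and no more than 33 consecutive coding bases with either.

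Late endosome and lysosome members gave 2 calls in 6, both lower, beside 19.6% of all genes called lower. Rab7b, which acts between late endosomes and the Golgi, had 1.28, 1.83, 1.99, 0.65 and 1.30 log2 CPM in FVB_MD43 and -2.01, -1.49, -1.50, -1.80 and -2.42 in B6GFP_MD43. No library of either group came within 2 units of the other group. The fitted difference was -3.30 ± 0.32 (SE), 9.85-fold lower in B6GFP, with adjusted p = 8.54e-08. In batch 1 MommeD43 libraries alone it was -3.30 with adjusted p = 0.0228. The line means gave the same exact permutation p of 0.0286, again fixed by the choice of a member without overlap. On the log2(CPM + 1) scale the difference shrank to -1.62, since the B6GFP levels lie well below 1 CPM. The ubiquitous late endosomal Rab7, with 48.7% identity to Rab7b, was not called. Rab9b, which serves traffic from late endosomes to the Golgi, was called at -1.16 ± 0.39 (adjusted p = 0.0268), but it lay below 1 CPM in most libraries, its groups overlapped, and 10 of the alternatives lost the call.

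**Figure D3:**
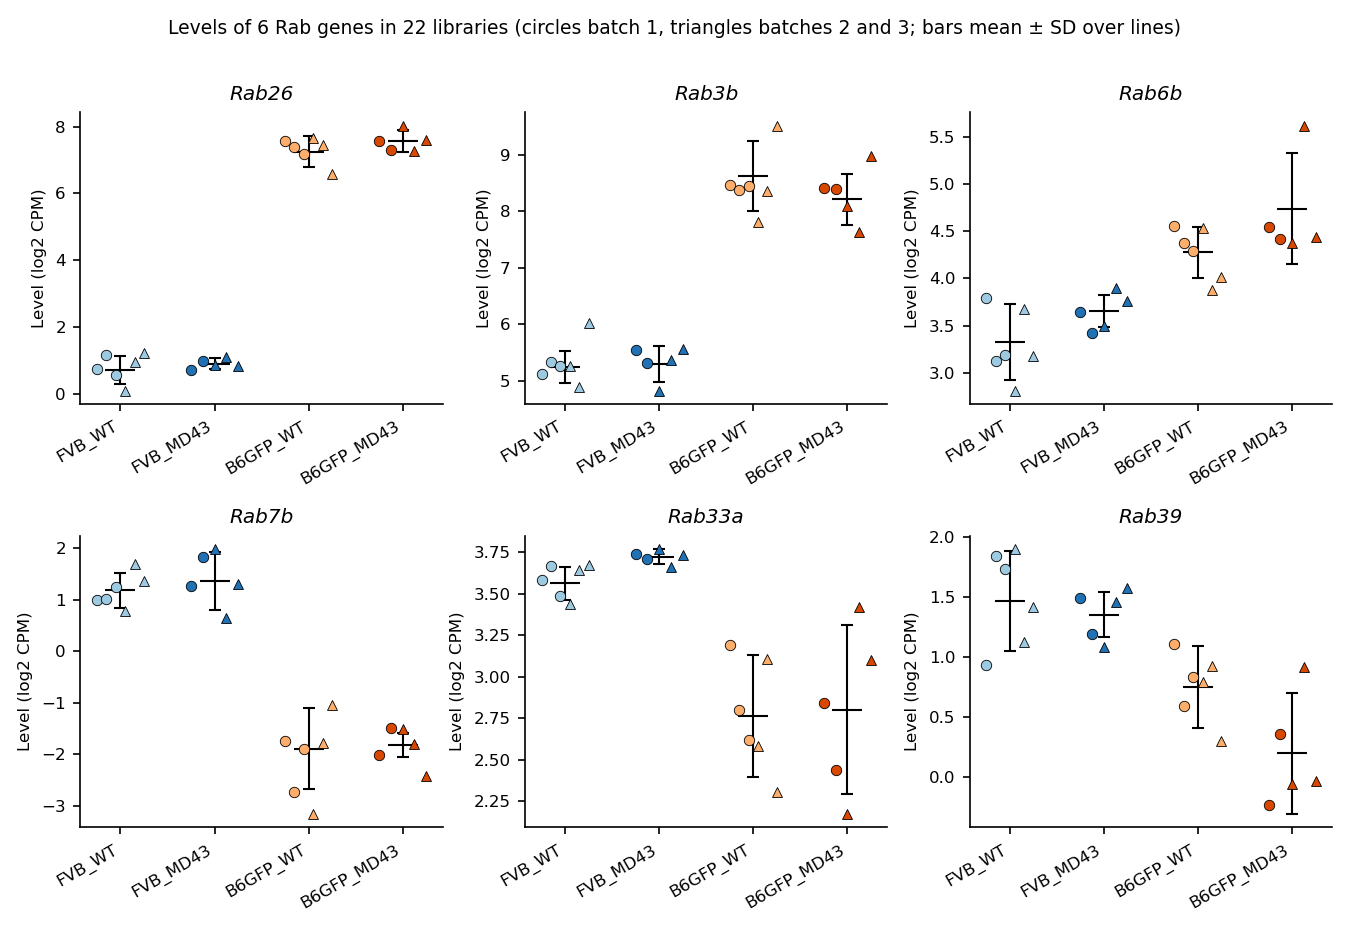
Level (vertical axis, log2 CPM, own scale per panel) of 6 Rab genes in every library, by group, with circles for batch 1, triangles for batches 2 and 3 and bars for the mean ± SD over lines. In MommeD43 cells Rab26, Rab3b and Rab6b are higher in B6GFP and Rab7b, Rab33a and Rab39 lower. The MommeD43 groups do not overlap in these 6 panels, which show members picked among those called. How many of all genes lack overlap was not counted.

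ER and Golgi members gave 4 calls in 13, beside 34.4% of all genes. Rab6b, the Rab6 form enriched in neurons that runs retrograde transport at the Golgi, had 3.64, 3.42, 3.49, 3.90 and 3.76 log2 CPM in FVB_MD43 and 4.54, 4.42, 4.37, 5.62 and 4.44 in B6GFP_MD43. All B6GFP libraries were above all FVB libraries, and replicate 2 of B6GFP_MD43 was again the highest. The fitted difference was 0.97 ± 0.16 (SE), 1.96-fold, with adjusted p = 6.19e-05, and 0.92 when that library and B6GFP_WT replicate 4 were left out. Rab6a, the general Rab6, with 90.9% identity to Rab6b, differed by 0.18 ± 0.09 (adjusted p = 0.126).

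Rab33a, a Golgi Rab with a role in axon growth, had 3.74, 3.71, 3.77, 3.66 and 3.73 log2 CPM in FVB_MD43 and 2.84, 2.44, 2.17, 3.42 and 3.10 in B6GFP_MD43. The FVB lines were tightly grouped and the B6GFP lines spread over more than 1 unit below them. The fitted difference was -1.01 ± 0.15 (SE), 2.02-fold lower, with adjusted p = 2.08e-05. Rab39, placed at the Golgi and late endosomes, had 1.49, 1.19, 1.08, 1.45 and 1.57 in FVB_MD43 and -0.23, 0.36, -0.06, 0.91 and -0.03 in B6GFP_MD43. Its groups did not overlap, and the fitted difference was -1.33 ± 0.21 (SE), 2.52-fold lower, with adjusted p = 5.53e-05. In batch 1 MommeD43 libraries alone the Rab39 value was -1.28 with adjusted p = 0.0617. Rab2b, in ER to Golgi transport, was called at -0.29 ± 0.10, and 8 alternatives lost that call.

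The remaining roles held smaller differences. Early endosome members gave 3 calls in 9, all lower (Rab5b, Rab5c and Rab21), beside 34.4% of all genes called and 19.6% called lower. The fitted differences of these 9 ran from -0.24 to 0.16, and after centring of each library Rab5c alone of the 3 stayed called. Rab5c, which serves early endosome fusion, was at -0.22 ± 0.05 (SE, adjusted p = 0.00331). In polarised exocytosis Rab8b was higher by 0.31 ± 0.09 and Rab10 lower at -0.24 ± 0.05. Rab23, a ciliary Rab that restrains Hedgehog signalling, was lower at -0.40 ± 0.06 (adjusted p = 3e-05) and the only call in 3 cilium members. Recycling endosome members gave no call in 6, with differences from -0.11 to 0.15, and the 3 lysosome-related organelle members gave none. Of the 3 other members Rab40c was called lower. Rab21 and Rab40c were named here after their values were seen.

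Genes that act on Rab proteins were taken from a fixed list, of which 120 of 127 were in the table. Of these, 40 (33.3%) were called between strains in MommeD43, 16 higher and 24 lower, close to the 34.4% of all genes, and 18 in the fit of MommeD43 libraries alone, where 22.8% of all genes were. Leaving out B6GFP_MD43 replicate 3 raised the 40 to 63, beside 54.8% of all genes. In the 3 classes counted here, 10 of 33 GEFs (6 higher, 4 lower), 13 of 37 GAPs (2 higher, 11 lower) and 13 of 43 effectors (6 higher, 7 lower) were called. Of all genes, 14.7% were called higher and 19.6% lower. No split by class was taken after centring of each library.

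Rabif, which holds nucleotide-free Rab proteins, was higher by 0.85 ± 0.07 (SE, adjusted p = 3.04e-09), with FVB_MD43 libraries at 4.75 to 4.97 log2 CPM and B6GFP_MD43 libraries at 5.61 to 5.72. The Rab escort gene Chml was higher by 0.21 ± 0.08, and the prenyl transferase subunit gene Rabggta was at -0.27 ± 0.09. Chm (0.12 ± 0.06) and Rabggtb (-0.12 ± 0.05) were not called.

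Among effectors, Myo5b, a motor for recycling vesicles that carry Rab11, had the widest gap at -2.24 ± 0.30 (adjusted p = 7.97e-06). Its B6GFP_MD43 libraries ran from -0.55 to 2.75 log2 CPM and overlapped those of FVB_MD43, at 1.42 to 2.69. Sytl5, an effector of Rab27, was at -1.67 ± 0.36 on levels below 1 CPM. The Rab11 effector Rab11fip4 was at -1.06 ± 0.30, and the Rab3 effector Rims1, a scaffold of the presynaptic active zone, was higher by 1.06 ± 0.34, but not in MommeD43 libraries alone (adjusted p = 0.223). Tbc1d16, a GAP, was at -0.82 ± 0.10 (adjusted p = 1.89e-06).

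**Figure D4:**
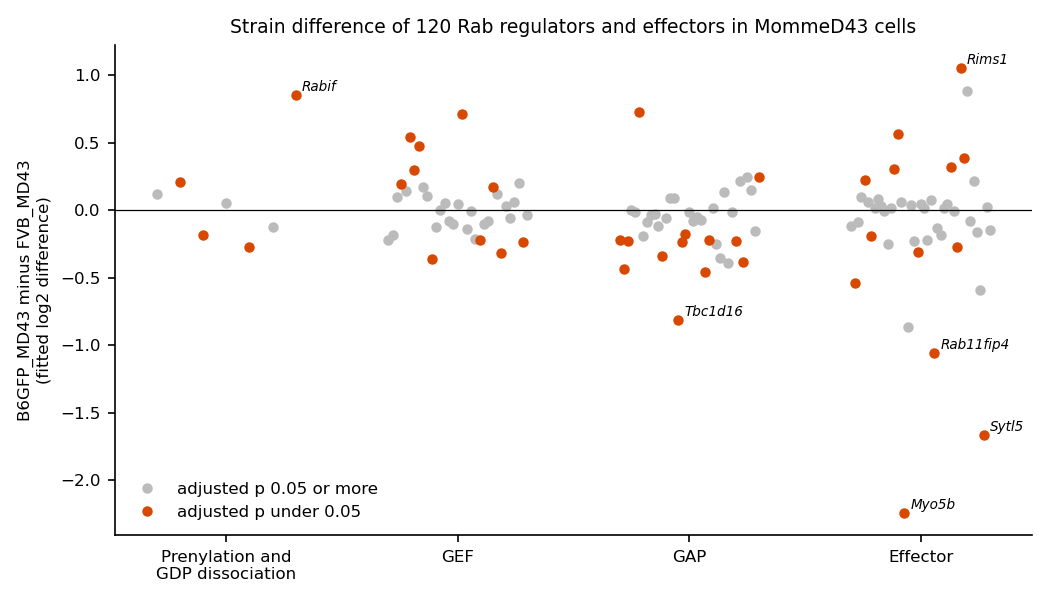
Fitted strain difference (vertical axis, B6GFP_MD43 minus FVB_MD43, log2 scale) of 120 regulators and effectors of Rab proteins, 1 point per gene, in 4 classes, with called genes in orange. Rabif at 0.85 is the highest of its class, and Myo5b at -2.24 the lowest of all.

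The study's own question is what MommeD43 does within a strain. In FVB, 0 of 54 Rab genes passed the threshold in limma, while 11 of all genes (0.0737%) passed. An unadjusted p under 0.05 was found in limma for 5 of the 54 members, beside 1024 of all genes (6.86%). The differences within ±0.25 numbered 46 of 54. The smallest p belonged to Rab6b, at 0.38 ± 0.12 (SE, adjusted p = 0.314), followed by Rab5b at 0.09 ± 0.04 and Rab18, of ER and lipid droplets, at -0.09 ± 0.04. The FVB_WT libraries of Rab6b had a lowest, median and highest level of 2.81, 3.19 and 3.79 log2 CPM, overlapping the 3.42 to 3.90 of FVB_MD43. Without the line FVB_MD43 replicate 2 the count rose to 7 of 54 (13%), with 6.54% of all genes called. These 7 were Rab2a, Rab6b, Rab15 and Rab39b, higher in FVB_MD43, and Rab18, Rab29 and Rab32, lower, with fitted differences from -0.48 to 0.46.

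In B6GFP, 0 of 54 passed in limma, as did 0 of all genes (0%). An unadjusted p under 0.05 was found in limma for 2 of the 54 members, beside 319 of all genes (2.14%). Rab39 had the smallest p of the members, with a fitted difference of -0.83 ± 0.20 (SE, adjusted p = 1). Its B6GFP_WT libraries had a lowest, median and highest level of 0.30, 0.81 and 1.11 log2 CPM, and the B6GFP_MD43 libraries, at -0.23 to 0.91, overlapped them. Without B6GFP_MD43 replicate 3 Rab39 was the 1 member called, at -1.01 (adjusted p = 0.00346), beside 0.932% of all genes. Rab40b, a subunit of a ubiquitin ligase, was at 0.47 ± 0.22 and Rab7b at 0.50 ± 0.31.

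Rab26 itself differed between MommeD43 and wild type by 0.07 ± 0.14 in FVB (95% interval -0.22 to 0.37) and by 0.11 ± 0.19 in B6GFP (-0.27 to 0.50). The corresponding values for Rab3b were 0.07 ± 0.12 and 0.04 ± 0.16. Both intervals of Rab26 lay inside a 2-fold change. Within batches the Rab26 difference was 0.03 in batch 1 and 0.18 in batch 2 for FVB, and 0.05 in batch 1 and 0.40 in batch 3 for B6GFP.

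The difference of the MommeD43 effect between strains gave 0 of 54 members past the threshold and 0 of all genes (0%) in limma. At an unadjusted p under 0.05 there were 1 member and 459 of all genes (3.08%). The smallest p were those of Rab9b (-1.06 ± 0.49), Rab40b (0.54 ± 0.27) and Rab5c (-0.13 ± 0.07), each with adjusted p = 1. For Rab26 the value was 0.04 ± 0.23. None of the 120 regulators and effectors was called for MommeD43 in FVB, in B6GFP or for this difference.

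**Figure D5:**
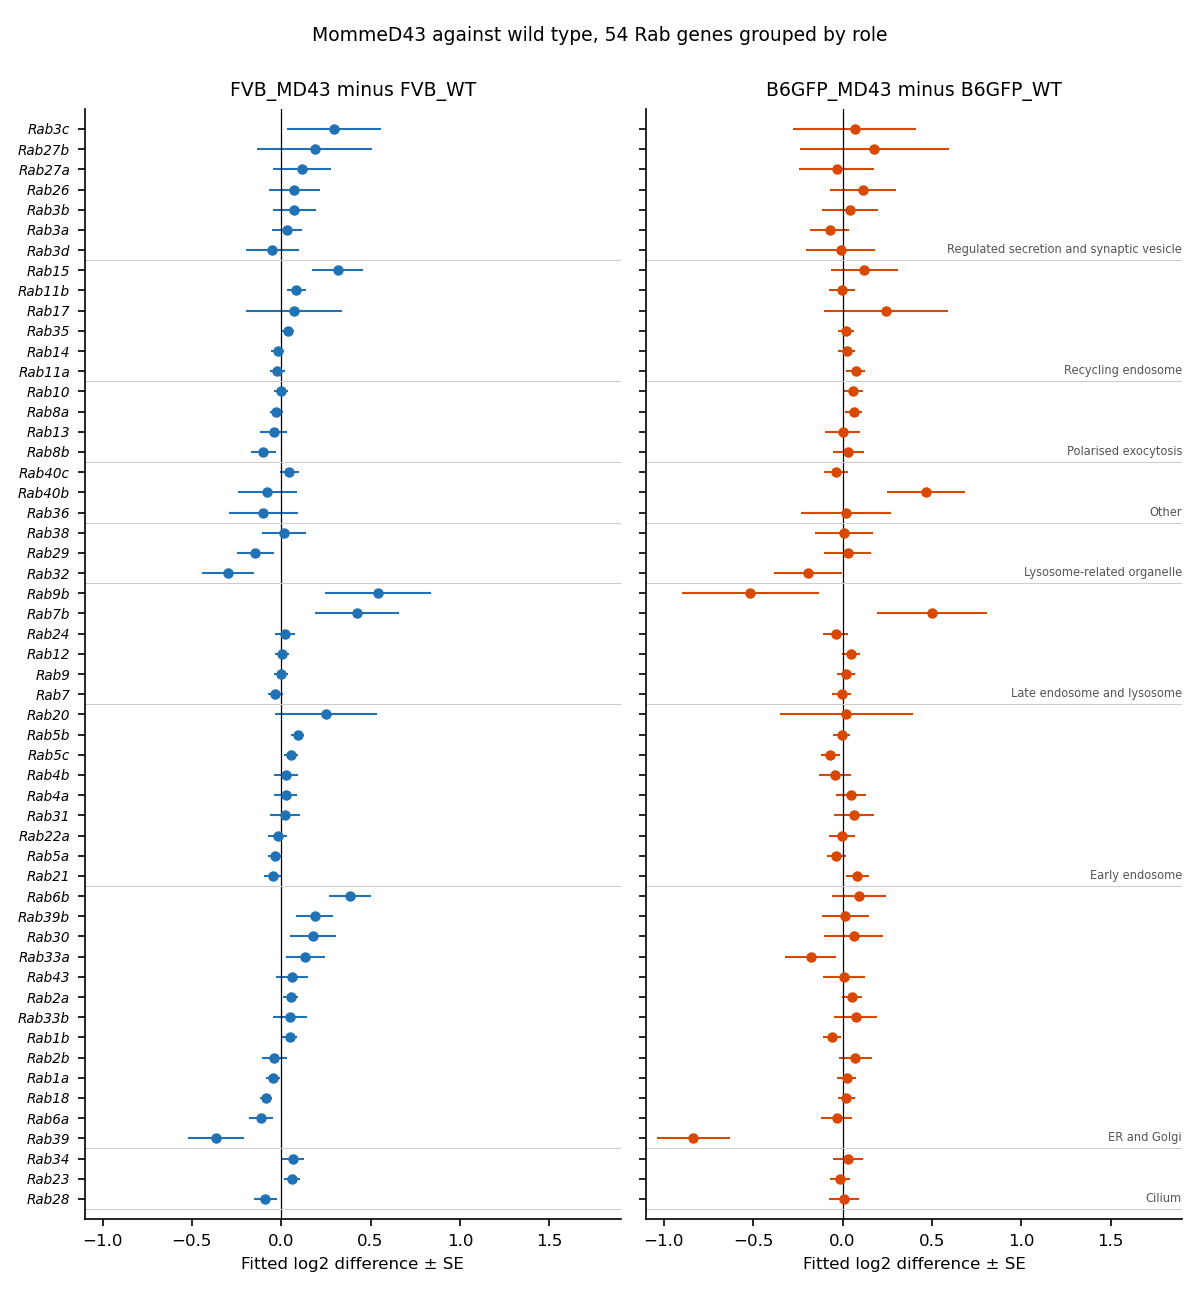
Fitted difference of MommeD43 from wild type (horizontal axes, log2 scale, points with ± 1 SE) of the 54 Rab genes in FVB, left, and B6GFP, right, ordered by role. None passed the threshold in either strain; the widest differences are those of Rab9b at 0.54 in FVB and Rab39 at -0.83 in B6GFP.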

How the data were processed

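RNA-seq libraries of mouse NSCs were grouped from the labels. The authors trimmed reads with Trim Galore 0.4.4, mapped them with HISAT2 2.0.5 to GRCm38.p6 and deposited batch-corrected log2 CPM values (limma 3.40.6). The paper names sex and strain beside batch in its correction. How strain entered is not given, and the deposited values still held strain differences. The read counter, annotation and depth are not given in the sources used here, so no counting interval is given.

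The deposited log2 CPM values of 14922 genes were fitted with limma 3.58.1 (R 4.3.3) using fixed terms for group and for batch, weights per library (arrayWeights, 0.1 to 4.9), a block for the line (correlation 0.0827) and a mean-variance trend, on 16 residual and 4.86 prior degrees of freedom. Values are given as fitted log2 difference ± SE, and p-values were adjusted across every gene by the Benjamini-Hochberg method, with calls below 0.05. Group means and SD are over lines. No filter or pseudocount was applied. Of 24 columns, 2 (in batch 1, replicate 3 of FVB_MD43 and replicate 2 of B6GFP_MD43) equalled their group mates' mean to within 8e-09 and were left out. In data simulated for the MommeD43 strain comparison on 14922 genes, 68% of 2-fold and 92% of 4-fold changes were called, and 0.0747% of unchanged genes. Each size was given to 100 genes with a mean above 1 CPM. The simulated noise was independent and normal, with no line or batch effect and equal library quality. The real libraries differ in these respects, so the simulated shares are a check of the fit and not its error rates here.

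The members, roles, regulator and marker lists were chosen with earlier results of these data known. Named genes were Rab26 and its closest member by protein identity, the 5 highest members, those past the threshold (at most the 12 with the largest change) or the 3 with the smallest p in a comparison, the 5 with the largest wild-type strain difference, the 3 genes on each side of Rab26, 6 regulators with the largest called change and the prenylation class, part of which is not reported here. Protein identity came from global alignment of translated GENCODE M21 coding sequence. Alternatives covered weights, blocks, batch, scaling, a pseudocount of 1, a filter (above 1 CPM in at least 4 libraries) and leaving out lines.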

Additional observations from a re-analysis of the deposited data

Results flagged for a closer look

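Dixon's test at the 95% level was applied to the line values of 84 groups of named members, and 8 stood apart; chance gives about 1 group in 20. The line of B6GFP_MD43 replicate 2 accounted for 4 of them: Rab3a at 4.96 log2 CPM (others 3.87 to 4.03), Rab6b at 5.62 (others 4.37 to 4.54) and Rab9b at 0.66 (others -2.57 to -2.35) were its highest, and Rab18 at 7.12 (others 7.38 to 7.39) its lowest. This line also had the highest neuron marker sum, 10.41, and endothelial marker sum, 3.56, of all 22 libraries, and their part in these values was not tested. The line of B6GFP_WT replicate 4, which had the lowest quality weight (0.1), was highest for Rab10 at 8.47 and Rab18 at 7.47. For Rab2b, the line of FVB_MD43 replicate 5 was lowest at 4.10 and that of B6GFP_MD43 replicate 4 highest at 4.33. With B6GFP_WT replicate 4 and B6GFP_MD43 replicate 2 both left out, an alternative chosen after seeing the data, 19 Rab genes were called between strains in MommeD43 beside 35% of all genes, against 17 beside 34.4%.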

How the results depend on the processing

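The strain difference of Rab26 in MommeD43 ran from 5.99 to 6.85 under all 32 alternatives. Those of Rab3b (2.92 to 3.15), Rab6b (0.87 to 1.08), Rab7b (-3.53 to -1.62) and Rab33a (-1.25 to -0.89) kept their direction and their call under the same 32. The count of 17 Rab genes became 6 without quality weights (6.82% of all genes called), 11 with MommeD43 libraries only (22.8%), 7 with those of batch 1 only (10.9%, chosen after seeing the data) and 45 with all 24 columns (93.8%), 2 of which equal a group mean. With the mean of each line as the unit and batch not in the model, the count was 25 (44.5%). It ran from 14 (33.1%) to 29 (54.8%) when a line was left out. The 40 regulators and effectors became 3 without weights, 18 and 6 in the MommeD43 fits, 19 in batch 1 alone (24.1% of all genes) and 106 with all 24 columns, and ran from 34 to 63 without a line. The 20 Rab genes of the wild-type strain comparison became 6 without weights (8.44% of all genes). For MommeD43 in FVB the count of 0 became 3 with all 24 columns (3.42% of all genes) and ran from 0 to 7 (6.54%) without a line, and in B6GFP it became 1 (3.22%) and ran from 0 to 1 (0.932%). The causes were not tested. Taking B6GFP lines that share a leading number as 1 block left the count at 17 (34.4%). The replicate block, which treats equal replicate numbers as pairs, gave 14 Rab genes (32.6% of all genes called) and 24 regulators and effectors between strains, and 0 Rab genes in the MommeD43 comparisons; same-numbered lines did not deviate together (r from -0.46 to 0.22 over 22 pairs, 1 of 17 lines closest to its own number), so the numbers were not taken as pairs. Centring each library moved the median strain difference of all genes from -0.03 to 0.04 and the calls over all genes from 2199 higher and 2927 lower to 3013 and 2265. Uncalled Rab26 values crossed 0 under some settings. For MommeD43 in FVB they were -0.036 in batch 1 alone and -0.16 with the replicate block, and ran from -0.17 to 0.40 without a line. In B6GFP they ran from -0.051 to 0.19 without a line. For the difference between strains the value was -0.025 with line means, and ran from -0.29 to 0.26 without a line. Depth is not known, so low members such as Rab7b and Rab9b carry an unstated counting error.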
